A study of Mus musculus with 5 samples.

Results

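The genes described here are 49 interferon-stimulated genes of the mouse, of 32285 genes listed in the deposited count matrices. They were chosen by name, as rows whose symbol is on a list drawn up after a lower level in the macrophage-like cells of the knockout libraries was already known. The values that chose them are therefore the difference between genotypes in macrophage-like cells, and that difference is given below as a description with no test. All 49 symbols were found once each in every library. The list has no threshold on measured values, so no gene was kept out by a cutoff. Other interferon-stimulated genes stand outside it, among the 118 other pathway genes described below.

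Whole lungs of E18.5 mouse embryos were dissociated with collagenase and DNase, treated to lyse red cells and profiled as single cells by 3′-end droplet sequencing, with 1 library per embryo. There were 2 Zswim8+/- embryos (Het1 and Het2) and 3 Zswim8-/- embryos (KO1, KO2 and KO3). Zswim8 encodes the substrate receptor of a ubiquitin ligase that takes part in target-directed degradation of microRNAs. Both groups carry at least 1 knocked-out copy and no wild-type group was analysed here, while the making of the allele, the litters and any processing batch were not given in the sources used here.

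Interferons are secreted cytokines that cells make when they sense viral nucleic acid, and at low levels also without infection. Type I and type III interferons act through receptors that bind JAK1 and TYK2, which phosphorylate STAT proteins, STAT2 among them. With IRF9 these form a complex that binds the interferon-stimulated response element (ISRE) in target promoters, whereas interferon gamma signals through the gamma-activated site (GAS). The targets include antiviral effectors, nucleic acid sensors, and parts of the pathway itself such as Irf7, Irf9 and Stat2, and macrophages and monocytes are known for keeping many of them at a measurable level at rest.

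Promoter sequences show what the list shares beyond its names. RefSeq promoter windows on GRCm38.p6, from 250 bases before to 50 bases after the start, were found for 37 of the 49 genes. The ISRE was read as GAAANNGAAA on either strand, so TTTCNNTTTC is the same motif on the other strand. It occurred in 24 of the 37 windows, or 64.9%, against 3.99% of the 27025 genes in the promoter table. The GAS was read as TTCNNNGAA, which reads the same on both strands, and occurred in 6 of the 37 windows, or 16.2%, against 9.55% of all genes. The 2 motifs can lie within a few bases of each other but their letters were counted separately. A match describes letters only and shows no binding.

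Below are 6 of these windows, each written along its gene's strand with the matched letters in capitals. The first 4 belong to genes that were lower in every knockout macrophage-like sum, and the last pair to GTPase genes that were not.
Isg15, chr4:156200871-156200900, minus strand: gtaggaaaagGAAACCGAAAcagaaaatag
Rsad2, chr12:26456553-26456582, minus strand: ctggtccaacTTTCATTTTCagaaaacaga
Ifit1, chr19:34640794-34640823, plus strand: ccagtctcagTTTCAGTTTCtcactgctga
Mndal, chr1:173880204-173880233, minus strand: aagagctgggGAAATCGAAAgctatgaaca
Gbp7, chr3:142530273-142530302, plus strand: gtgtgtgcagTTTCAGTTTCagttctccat
Gbp2, chr3:142620594-142620623, plus strand: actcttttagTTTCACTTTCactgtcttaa
The Ifit1 and Gbp7 windows hold the same 10 matched letters, TTTCAGTTTC, although the 2 genes differed in how their level compared between genotypes. The 6 windows are examples. In macrophage-like sums, 22 of 24 tested members with an ISRE match had every knockout value below both heterozygous values. So had 12 of 12 tested members without a match, against 15.4% of all genes. The list was chosen on this contrast, so nothing is read from these counts.

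The deposited matrices held between 56608582 and 93708304 UMIs (unique molecular identifiers, each a counted RNA molecule) per library. After filters on barcodes, 3051 to 4634 cells per library were kept, with a median of 9714 to 12743 UMIs per cell, and 33 of 18836 kept barcode sequences, or 0.175%, occurred in more than 1 library. Zswim8 itself was measured at 36.8 and 38.9 CPM (counts per 1e6 counts of the sum) in the heterozygous embryos, compared with 38.5 (KO1), 39.1 (KO2) and 41.2 (KO3), so its 3′-end level was not lower in the libraries labelled knockout. The part of the gene that was altered is not given in the sources used here, so this level does not check the labels. Y-linked and Xist counts showed Het1, Het2 and KO3 to be male and KO1 and KO2 to be female. Cell classes were named from marker genes with the members and other interferon-stimulated genes left out of the clustering, and a class is called X-like for that reason. The labels do not state whether the embryos were separate litters, so p-values measure the spread between these 5 embryos.

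In the heterozygous libraries the sum over the list was highest in monocyte-like, macrophage-like and lung capillary cells. Summed over the 49 genes, the level was highest in monocyte-like cells, at 114 and 108 member UMIs per 10000 UMIs. Macrophage-like cells had 53.1 and 41.4, aerocyte-like endothelial cells 42.2 and 45.5, and general capillary-like cells 41.6 and 35.2. Among 20 classes with enough cells in both heterozygous libraries, 34 of the 49 genes had their highest level in monocyte-like cells, and for 28 of these both libraries lay above both values of the next class. The epithelial lineage had 3.81 and 3.81 and the mesenchymal lineage 5.49 and 5.53. Both were below the 10.1 and 8.31 per 10000 non-haemoglobin UMIs in barcodes of red cells, which were used as a stand-in for free RNA. Per barcode the order was reversed, because a red-cell barcode held 0.50 and 0.32 member UMIs in Het1 and Het2. Rsad2 stood at 330 and 210 CPM in those barcodes, with a mean above its heterozygous mean in each of the 20 classes. How much of the red-cell sum is free RNA, and how much the red cells' own, was not tested. Whether free RNA adds to the epithelial and mesenchymal values was not tested either.

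**Figure D1:**
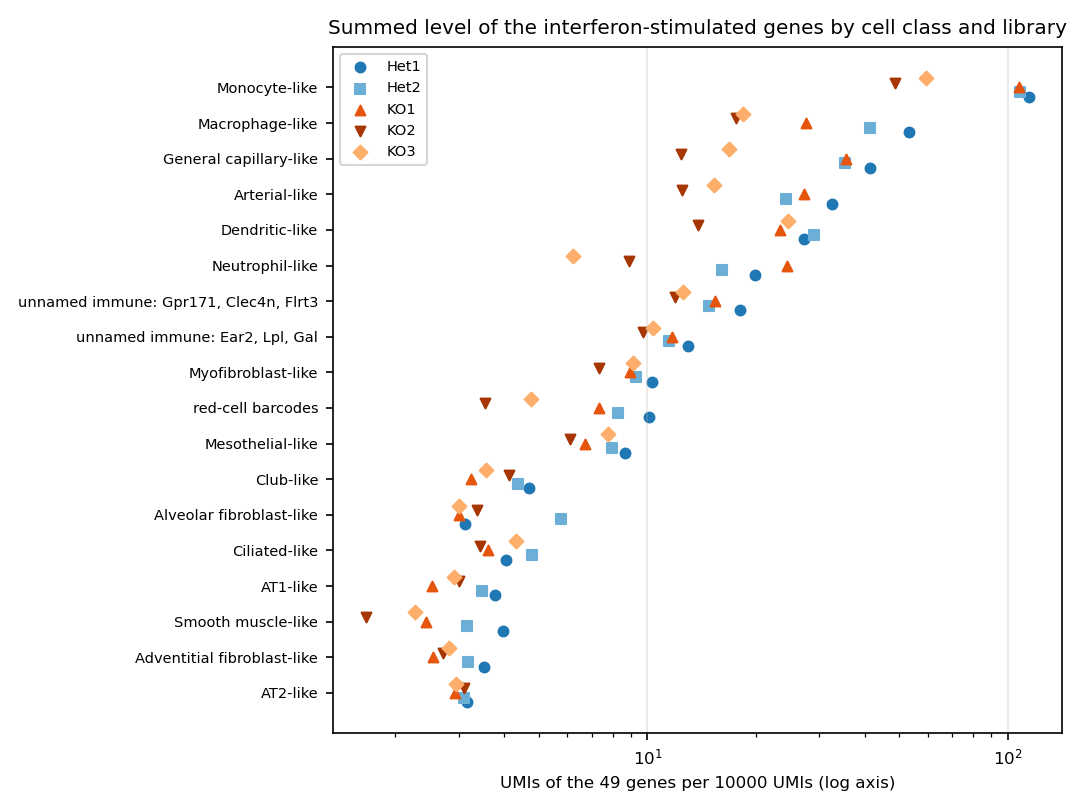
Summed level of the 49 interferon-stimulated genes (UMIs per 10000 UMIs of the sum, log axis) by cell class, 1 point per library with a colour and marker of its own. Monocyte-like cells lie highest, with Het libraries at 114 and 108, and AT2-like cells lie near the bottom, at 3.16 and 3.09.

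The others were highest elsewhere, and their levels are given in CPM without TMM scaling. Aerocyte-like cells held the highest level of 4 genes, Irf9, Ly6e, Phf11d and Xaf1. Ly6e stood there at a mean of 2223 CPM over the 2 heterozygous libraries, against 1941 in monocyte-like cells, and Phf11d at 48.5, against 37.7 in general capillary-like cells. For Irf9 and Xaf1 the values of the 2 highest classes overlapped. Iigp1, an immunity-related GTPase that acts on the membranes of intracellular parasites, was highest in myofibroblast-like cells, at a mean of 800 CPM over the 2 heterozygous libraries, against 200 in alveolar fibroblast-like cells. Ifi44, an interferon-induced cytoplasmic protein, was highest in general capillary-like cells, at 105 and 63.4 CPM in the 2 heterozygous libraries. Macrophage-like cells held the highest level of 4 genes, Eif2ak2, Gbp7, Gm4951 and Ifit2, and of these Gm4951, a predicted GTPase of the same family, stood at 38.7 CPM against 3.31 in the next class. Ddx60, a helicase-like protein of the RNA sensing pathway, was highest in neutrophil-like cells, at a mean of 102 CPM.

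In macrophage-like cells, where the list was chosen, nearly every gene stood lower in the knockout libraries. The summed level was 53.1 and 41.4 per 10000 UMIs in the heterozygous embryos, compared with 27.5 (KO1), 17.6 (KO2) and 18.4 (KO3), or 47.2 ± 8.22 (SD, n = 2) against 21.2 ± 5.51 (SD, n = 3). The groups did not overlap. Of 48 genes that passed the low-count filter, 45 had all 3 knockout values below both heterozygous values, and such an order was found for 15.4% of all genes measured in these cells. The median log2 fold change (knockout over heterozygous) was -1.64, with 0.00 over all genes. edgeR placed 36 of the 48 past an adjusted p of 0.05 in the lower direction, where 1.22% of all genes were, and since the list was chosen on this contrast nothing is read from these shares. The number past that threshold was 0 without Het1, 13 without Het2 and 45 without KO1. Ifi44, the gene that missed the filter, is not counted. The CPM below are from these sums after TMM scaling.

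**Figure D2:**
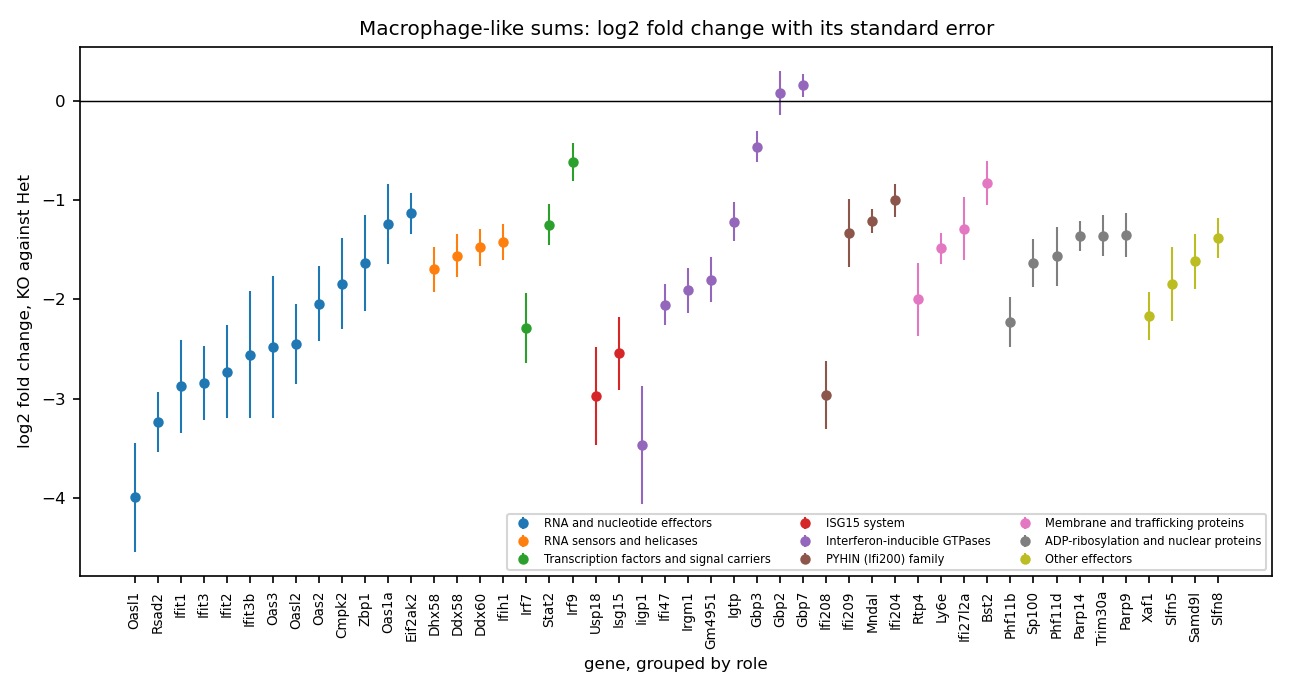
Log2 fold change (KO over Het) of each gene in macrophage-like cells with its standard error, grouped by role. All role groups lie mainly below 0, from Oasl1 at -4.00, and Gbp2 at 0.08 and Gbp7 at 0.15 lie above it.

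The 13 effectors that act on RNA and nucleotides had a median log2 fold change of -2.48, from -4.00 to -1.13. Oasl1 (chr5:114923240-114937915), an oligoadenylate synthetase-like protein that restrains translation of Irf7, stood at 19.4 and 9.79 CPM in the heterozygous embryos, compared with 1.79 (KO1), 0.93 (KO2) and 0.23 (KO3), a log2 fold change of -4.00 ± 0.55 (SE). Those knockout values rest on 5, 3 and 1 UMIs. Rsad2 (chr12:26442746-26456452), or viperin, which makes a chain-terminating nucleotide, stood at 78.3 and 40.9 CPM in the heterozygous libraries and at 8.94, 4.94 and 5.54 in the knockout libraries, a change of -3.24 ± 0.30. The lowest heterozygous value of Rsad2 was thus above the highest knockout value. Oasl2, another synthetase-like protein, stood at 119 and 73.7 CPM against 35.1, 6.79 and 13.6. Eif2ak2, the kinase PKR that halts translation on double-stranded RNA, stood at 113 and 87.5 CPM against 61.9, 34.9 and 42.0, the change nearest 0 in this group, -1.13 ± 0.20. Zbp1, a sensor of Z-form nucleic acid, was the exception to the order, with KO1 at 30.4 CPM and Het2 at 29.95. Ifit3 and Ifit3b, and Oas1a with its copies outside the list, are near-identical, and how reads fitting more than 1 copy were counted is not given in the sources used here, so their split is uncertain.

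The 4 sensors of viral RNA had a median of -1.52. Ddx58, which encodes RIG-I, stood at 63.3 and 63.4 CPM in the heterozygous libraries and at 30.8, 15.7 and 19.1 in the knockout libraries. Ddx60 stood at 67.2 and 54.1 CPM against 26.5, 16.7 and 22.6. No knockout value of these genes reached a heterozygous one, and KO1 was the highest knockout library for both.

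The 3 transcription factors of the pathway had a median of -1.25. Irf9, the DNA-binding partner of STAT2, stood at 71.1 and 59.3 CPM against 56.5, 37.4 and 35.5, so KO1 lay just under Het2. Stat2 stood at 49.98 and 43.8 CPM against 26.1, 15.1 and 18.7. Irf7, which amplifies interferon production, had the largest change of the group, -2.29 ± 0.36, from 63.3 and 41.5 CPM to 18.6, 10.5 and 5.07. The ISG15 system had the lowest group median, -2.76. Isg15 (chr4:156199424-156200818), which encodes a ubiquitin-like protein attached to targets, stood at 147 and 101 CPM against 41.5, 15.4 and 10.6. Usp18, the protease that removes ISG15 and also restrains the receptor, stood at 23.3 and 19.0 CPM against 6.44, 1.24 and 1.15.

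The 8 interferon-inducible GTPases were the mixed group, with 6 of 8 changes negative and a range from -3.47 to 0.15. Gbp7, a guanylate-binding protein that coats vacuoles holding pathogens, stood at 388 and 299 CPM in the heterozygous libraries and at 372, 400 and 376 in the knockout libraries, a change of 0.15 ± 0.12. Gbp2, another guanylate-binding protein, stood at 18.9 and 16.1 CPM against 21.8, 18.53 and 15.9. These groups overlapped for both genes. Gbp3 had a small change of -0.46 ± 0.15, from 45.5 and 36.3 CPM to 29.7, 30.6 and 29.1, without overlap. The 3 genes lie near each other on chromosome 3 of GRCm38, from Gbp7 (chr3:142530342-142550149) to Gbp2 (chr3:142620602-142638008). Iigp1 stood at 12.2 and 5.76 CPM against 0.36, 1.54 and 0.46, and these knockout values rest on 1, 5 and 2 UMIs.

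The other groups kept between 1 and 2 log2 units of change at their medians. Among the 4 PYHIN proteins, which bind DNA, Ifi204 stood at 379 and 297 CPM against 212, 141 and 154, and Mndal at 222 and 201 against 106, 86.2 and 83.3. PYHIN genes form a cluster of similar copies on chromosome 1, so reads may be split among them. Of the membrane proteins, Bst2, or tetherin, which holds budding virions at the cell surface, stood at 611 and 401 CPM against 395, 233 and 229. Ifi27l2a, a mitochondrial membrane protein, stood at 634 and 378 CPM against 332, 166 and 129, and KO1 was the knockout library nearest to Het2 for both genes. Of the nuclear proteins, Trim30a, a ubiquitin ligase, stood at 242 and 191 CPM against 113, 59.0 and 82.1. Parp14, an ADP-ribosyltransferase, stood at 208 and 184 CPM against 95.5, 64.8 and 69.9. Of the remaining effectors, Slfn5, a Schlafen protein, stood at 280 and 198 CPM against 123, 32.7 and 48.7, and Xaf1, which promotes cell death, at 86.1 and 73.1 against 27.5, 12.4 and 14.8.

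Cell number and some other marker sums in macrophage-like cells also differed between the groups, and their part in the difference was not tested. The class held 223 and 206 cells in the heterozygous libraries and 301, 355 and 421 in the knockout libraries. The summed level of 20 genes of maturing alveolar macrophages was 6.99 and 7.26 per 10000 UMIs against 13.7, 10.999 and 9.39. The 6 erythroid markers stood at 298 and 208 per 10000 UMIs against 95.3, 146 and 147, all 6 above 0 in some library. The 10 neutrophil markers summed to 2.26 and 1.72 against 0.983, 0.933 and 1.04, and the 6 club cell markers to 2.74 and 2.87 against 1.34, 1.21 and 1.49. The 8 dendritic cell markers were higher in the knockout libraries, at 1.78, 1.51 and 1.48 against 1.15 and 0.923, with 2 of them at 0 throughout. The 8 monocyte markers ranged from 26.4 to 32.6 in heterozygous and from 25.8 to 27.7 in knockout libraries, and 13 dissociation stress genes from 118 to 128 and from 109 to 120, with overlap for both. Within the larger macrophage-like cluster the summed member level was 60.1 and 46.0 against 27.8, 18.7 and 19.2. Within the cluster of low depth it was 30.5 and 26.3 against 24.4, 10.4 and 11.5, again without overlap.

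The difference was present across macrophage-like cells and not carried by a few. After each cell was thinned to 5000 UMIs, the median cell held 25 and 19 member UMIs in the heterozygous embryos, compared with 12 (KO1), 7 (KO2) and 8 (KO3). The 10th percentile was 9 and 8 in the heterozygous libraries against 5, 4 and 4. The 90th percentile was 50.2 and 40 against 24.3, 13 and 17, so all 3 percentiles lay lower in each knockout library. Thinning used 125 of 223, 116 of 206, 198 of 301, 230 of 355 and 278 of 421 cells, and the shallower cells were left out.

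**Figure D3:**
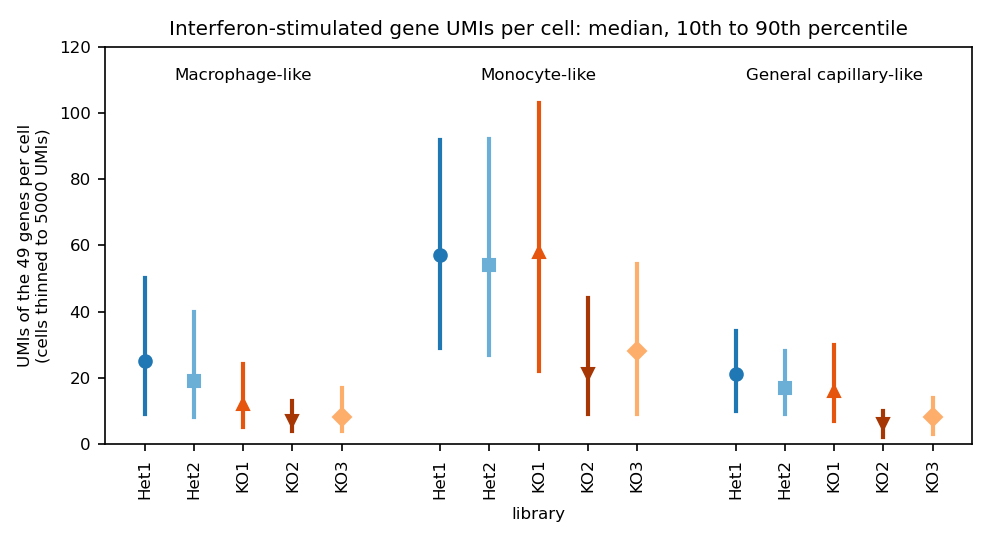
Member UMIs per cell after thinning to 5000 UMIs, by class and library, with the median and the 10th to 90th percentiles. Macrophage-like medians are 25 and 19 in Het against 12, 7 and 8 in KO, and in monocyte-like cells KO1, at 58, lies with Het.

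Monocyte-like cells, which had the highest summed level, stood well below the heterozygous level in 2 of the 3 knockout embryos. Their summed level was 114 and 108 per 10000 UMIs in Het1 and Het2, 107 in KO1, and 48.7 and 59.1 in KO2 and KO3, or 111 ± 4.30 (SD, n = 2) against 71.8 ± 31.3 (SD, n = 3). KO1 thus lay beside the heterozygous libraries and the other two knockout libraries well below them. edgeR called 0 of 46 tested genes lower, against 0.169% of all genes tested, and the lowest adjusted p was 0.0889, for Sp100. DESeq2 called 2. At an unadjusted p under 0.05, 33 of the 46 were lower, against 6.08% of all genes. All 46 changes were negative, with a median of -0.88, and 19 had all knockout values below both heterozygous values, against 14.3% of all genes. These genes share their cells and their 5 embryos, so such shares are descriptions of the same few libraries.

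Single genes in monocyte-like cells show the split. Isg15 stood at 460 and 432 CPM in Het1 and Het2, at 519 in KO1, and at 101 and 144 in KO2 and KO3. Irf7 stood at 341 and 327 CPM, at 443, and at 97.7 and 130. Rsad2 stood at 104 and 88.1 CPM, at 141, and at 23.9 and 26.7. KO1 was above both heterozygous libraries for these 3 genes. For Ly6e, a membrane-anchored protein that blocks entry of some viruses, the libraries stood at 2012 and 1937 CPM against 1478, 1133 and 1317, without overlap and with a log2 fold change of -0.59 ± 0.12 (edgeR, adjusted p = 0.108). Sp100, a nuclear body protein, stood at 294 and 270 CPM against 197, 137 and 134 (-0.88 ± 0.16).

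**Figure D4:**
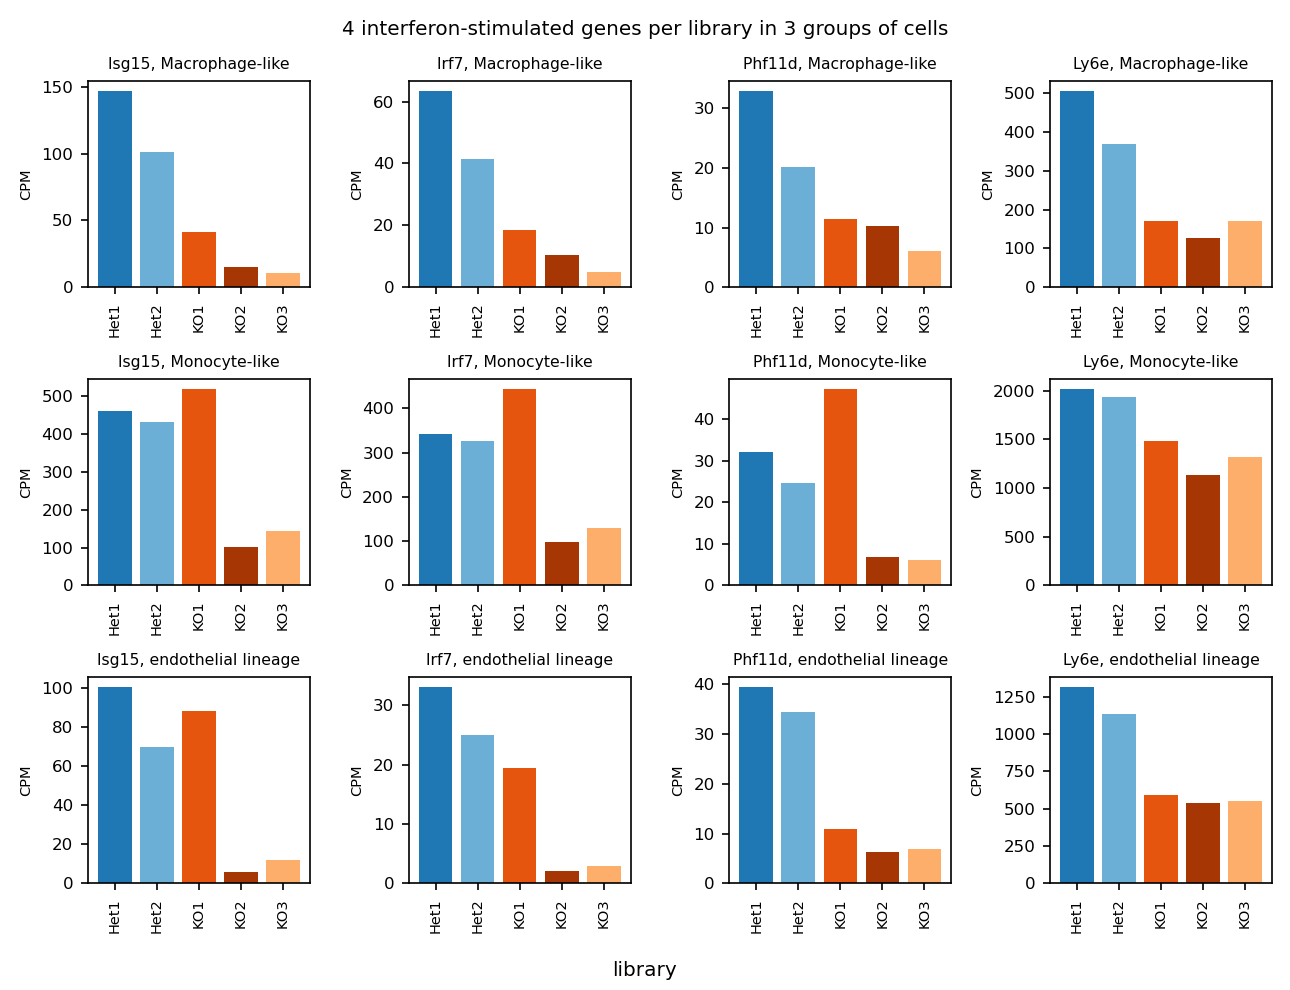
CPM after TMM scaling of Isg15, Irf7, Phf11d and Ly6e (columns), 1 bar per library, in macrophage-like, monocyte-like and endothelial cells (rows), with no error bars. Isg15 in KO1 stands at 41.5 in macrophage-like cells, below both Het bars, and at 519 in monocyte-like cells, above both.

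KO1 stood apart from KO2 and KO3 in a class-dependent way. In macrophage-like cells it lay below both heterozygous libraries for 45 of 48 genes, in monocyte-like cells for 19 of 46, in endothelial cells for 18 of 40 and in neutrophil-like cells for 4 of 27. Over all genes measured in the same sums the shares were 34.2%, 40.6%, 39.2% and 38.5%, so the monocyte-like and endothelial counts of members lay near the background. The median distance of KO1 from the heterozygous mean was -1.05 log2 units in macrophage-like cells, -0.02 in monocyte-like cells and -0.09 in endothelial cells. For KO2 and KO3 it was -1.38 and -1.14 in monocyte-like cells and -1.69 and -1.54 in endothelial cells. KO1 had 109 monocyte-like cells where the other libraries had 326 to 362, and interstitial macrophage genes summed to 43.9 per 10000 UMIs in them where the others had 14.2 to 19.97. Without KO1, edgeR called 44 of 46 genes lower in monocyte-like cells, against 3.59% of all genes. KO1 was left out after these values were seen, so nothing is read from that count. Leaving out each library in turn moved the median change of the members there between -1.235 and -0.587.

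**Figure D5:**
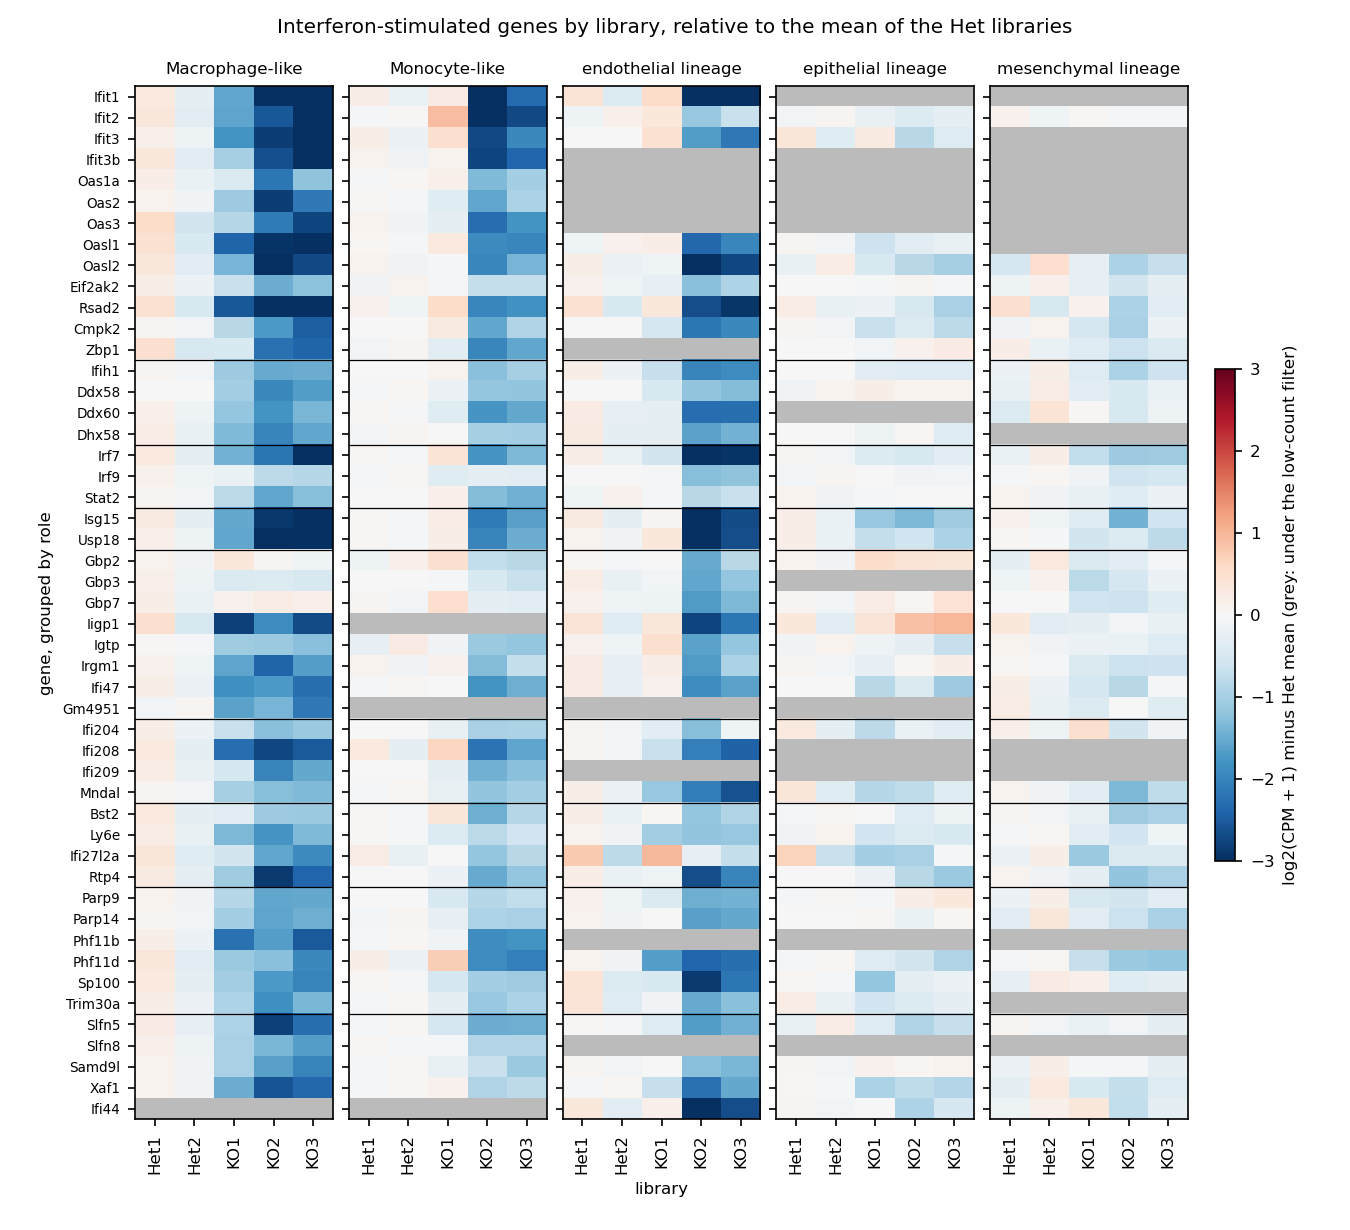
Each gene's log2(CPM + 1) minus the mean of the Het libraries (colour, blue lower and red higher, grey where the gene was under the low-count filter), with genes in rows grouped by role and libraries in columns, for 5 groups of cells. The KO1 column is pale in monocyte-like and endothelial cells, with medians of -0.02 and -0.09, and blue in macrophage-like cells, with a median of -1.05.

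In the endothelial lineage edgeR called 5 of 40 tested genes lower and 0 higher, against 3.84% of all genes called lower. All 40 changes were negative, with a median of -1.065, and 18 of the 40 had all knockout values below both heterozygous values, against 20.4% of all genes for that order. Without KO1 edgeR called 37 of 40, against 4.4% of all genes, and without Het1, Het2 or KO3 it called 2. In each of these fits Ly6e and Phf11d were past the threshold. Aerocyte-like cells, a class rich in Ly6e and Phf11d, made up 12.6% and 11.6% of endothelial cells in the heterozygous embryos, compared with 0.243% (KO1), 0.872% (KO2) and 0% (KO3). The last is 0 of 369 cells, which allows a share of up to 0.813% by counting error alone. Their part in the lineage sums was not tested. General capillary-like cells, which hold none of them, are given below.

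Ly6e (chr15:74955051-74959905, GRCm38) stood at 1312 and 1135 CPM in the endothelial sums of Het1 and Het2 and at 591, 539 and 550 in those of KO1, KO2 and KO3, a log2 fold change of -1.13 ± 0.09 (edgeR, adjusted p = 0.00039). Phf11d (chr14:59347407-59365470), a PHD-finger nuclear protein with a close copy in Phf11b, stood at 39.4 and 34.4 CPM against 10.9, 6.26 and 6.86 (-2.22 ± 0.22, edgeR adjusted p = 0.00123). For both genes all 3 knockout embryos, KO1 included, lay below both heterozygous ones. Mndal stood at 29.3 and 23.04 CPM against 11.2, 5.395 and 3.43 (-2.02 ± 0.37, edgeR adjusted p = 0.0194). Both RNA sensors that passed had values near the threshold. Ifih1, which encodes MDA5, stood at 30.4 and 23.5 CPM against 16.2, 6.04 and 6.501 (-1.53 ± 0.37, edgeR adjusted p = 0.0493). Ddx58 stood at 53.3 and 53.4 CPM against 38.8, 23.1 and 21.1 (-0.96 ± 0.23, edgeR adjusted p = 0.048). Isg15 and Iigp1 did not pass (edgeR adjusted p = 0.401 and 0.516). Isg15 stood at 100 and 69.9 CPM in Het1 and Het2, at 88.3 in KO1, and at 6.04 and 12.1 in KO2 and KO3. Iigp1 stood at 176 and 101 CPM, at 170, and at 19.0 and 29.1. KO1 lay between the heterozygous libraries for these 2 genes.

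In general capillary-like cells alone, edgeR called 3 of 39 genes lower, against 2.02% of all genes. Ly6e stood at 1326 and 1182 CPM against 691, 553 and 706, a change of -0.95 ± 0.12 (edgeR, adjusted p = 0.00306). Phf11d stood at 40.4 and 34.8 CPM against 13.6, 6.73 and 7.29 (-2.08 ± 0.25, edgeR adjusted p = 0.00305), and Mndal at 29.9 and 24.2 against 12.3, 3.80 and 3.97 (-2.10 ± 0.39, edgeR adjusted p = 0.0217). None of the 3 overlapped between groups. The count was 38 of 39 without KO1, against 4.17% of all genes, 0 without Het1, and 0 with the embryo's sex as a covariate. After thinning to 5000 UMIs the median capillary cell held 21 and 17 member UMIs in the heterozygous libraries and 16, 6 and 8 in the knockout libraries. Ifi44 followed KO1's pattern, at 105 and 63.4 CPM without scaling in Het1 and Het2, 110 in KO1, and 5.78 and 12.2 in KO2 and KO3.

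In the epithelial lineage, edgeR called 5 of 37 genes lower and 0 higher, against a high background of 7.9% of all genes called lower. Isg15 stood at 6.86 and 5.00 CPM against 2.11, 1.71 and 2.29 (-1.55 ± 0.25, edgeR adjusted p = 0.00727). Xaf1 stood at 7.84 and 7.28 CPM against 3.42, 4.06 and 3.67 (-1.01 ± 0.18, edgeR adjusted p = 0.0102). Ly6e stood at 134 and 155 CPM against 96.8, 109 and 106 (-0.48 ± 0.10). Usp18 changed by -0.83 ± 0.18, and Cmpk2, a mitochondrial nucleotide kinase beside Rsad2 on chromosome 12, by -0.66 ± 0.16. When cells with markers of another lineage were left out, 0 of 29 passed by edgeR, against 0.739% of all genes called lower in that fit, and Isg15 had -1.41 with an adjusted p of 0.0605. Such cells made up 6.86% and 9.28% of epithelial cells in the heterozygous embryos, compared with 8.13% (KO1), 14.5% (KO2) and 19.8% (KO3). Without Het1 the count was 0, without Het2 it was 3, and without KO3 it was 2. Isg15 is also present in red-cell barcodes, at 0.0391 and 0.0124 UMIs per barcode in Het1 and Het2 against 0.114 and 0.0961 per epithelial cell. The make-up of the lineage differed too. Club-like cells were 302 of 860 and 188 of 614 in Het1 and Het2. In KO1, KO2 and KO3 they were 106 of 332, 91 of 352 and 48 of 424. Ly6e had a heterozygous mean of 233 CPM in club-like and 92.2 in AT2-like cells, without scaling. The part of cell make-up in these calls was not tested. The counts without single libraries stand without shares of all genes, so nothing particular to the members is read from them.

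In AT2-like cells, the surfactant-making cells of the alveolus, edgeR called 3 of 27 genes lower, a share close to the 9.4% of all genes called lower there. They were Isg15, at 9.67 and 3.59 CPM against 2.59, 1.41 and 2.33 (-1.71 ± 0.43), Xaf1 (-1.52 ± 0.30) and Phf11d (-1.29 ± 0.28). The median change of the 27 was -0.28. The number called in AT2-like cells was 1 without Het1 and 5 without KO1.

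The mesenchymal lineage had 0 of 36 genes called by edgeR, against 0.0508% of all genes called lower, with 17 lower at an unadjusted p under 0.05, against 7.65% of all genes, and 0 called by DESeq2. The lowest adjusted p was 0.155, for Gbp7, at 28.6 and 27.8 CPM against 18.2, 18.1 and 21.6. In this lineage, 22 of 36 genes had all knockout values below both heterozygous values, against 15.7% of all genes, and the median change was -0.57. Iigp1, whose highest level was in this lineage, stood at 180 and 117 CPM against 119, 137 and 124, and its groups overlapped. In myofibroblast-like cells Iigp1 stood at 836 and 764 CPM without scaling against 752, 624 and 800. Smooth muscle-like cells had 0 of 15 genes called by edgeR, against 0.0834% of all genes, 6 lower at an unadjusted p under 0.05, against 4.71%, and 2 by DESeq2. Neutrophil-like cells had 0 of 27 called by edgeR, against 0% of all genes, with 4 lower at an unadjusted p under 0.05, against 4.88%, and 0 by DESeq2. Without KO1 they had 19 of 27, against 1.64% of all genes. KO1 was left out after its values were seen, so nothing is read from that count. Leaving out each library in turn moved the median change of the members in neutrophil-like cells between -1.447 and -0.366.

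The 2 large immune clusters that could not be named from the marker lists were tested after they had been seen. Ear2 and Lpl, which lead the first, are among the genes of maturing alveolar macrophages used above. Whether these clusters hold macrophages, the kind of cell whose contrast chose the list, was not tested. In the cluster led by Ear2, Lpl and Gal, edgeR called 11 of 38 genes lower, against 3.11% of all genes, with a median change of -0.44. Among them Irf9 stood at 29.2 and 27.6 CPM against 19.1, 9.82 and 12.95 (-1.10 ± 0.17, edgeR adjusted p = 0.00385), and Slfn5 at 6.65 and 5.77 against 2.15, 1.09 and 1.30 (-2.13 ± 0.30, edgeR adjusted p = 0.00221). Trim30a (-0.64), Sp100 (-0.67), Parp14 (-0.50) and Mndal (-0.36) had smaller changes with higher counts. Irf7 (-1.12), Isg15 (-1.26), Oas2 (-1.89), Oas3 (-2.43) and Rtp4 (-2.64) rest on 0 to 26 UMIs in each knockout library. The count was 2 without Het1, 5 without Het2 and 4 without KO2, 2 with sex as a covariate, and 6 by DESeq2.

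In the cluster led by Gpr171, Clec4n and Flrt3, edgeR called 7 of 34 genes lower, against 3.02% of all genes. Ifi204 stood at 89.7 and 71.1 CPM against 64.7, 41.4 and 44.5 (-0.70 ± 0.16, edgeR adjusted p = 0.0173). Sp100 (-0.67), Irf9 (-0.66), Trim30a (-0.54), Mndal (-0.44), Slfn5 (-1.59) and Oas3 (-2.18) were the others. The count was 0 without Het1, 1 without Het2, 2 without KO2 and 4 without KO3, and 1 by DESeq2. The counts under other settings in both unnamed clusters stand without the shares of all genes, so nothing particular to the members is read from them. All fits share the same 5 embryos, so agreement between classes is not independent.

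Across 10 tested fits 19 of the 49 genes were called lower at least once and none higher. The 34 calls fell in 6 of the fits, and 4 fits held none. The share of all genes called lower in these fits ran from 0% in neutrophil-like to 9.4% in AT2-like cells. The pooled counts are therefore not a result about the members alone. Whether the fall differs between cell classes was tested directly as a genotype by class term between monocyte-like cells and each non-immune lineage, with the library as a block. edgeR called 0 of 49 members for the endothelial lineage, 0 for the epithelial and 0 for the mesenchymal, where 0.247%, 0.48% and 0.0195% of all 15401 genes were called. At an unadjusted p under 0.05 there were 10, 7 and 4 members, against 8.38%, 11.8% and 7.75% of all genes, so the epithelial and mesenchymal counts lay near the background. The lowest adjusted p were 0.115 (Mndal, endothelial minus monocyte-like -1.23 ± 0.29), 0.0602 (Ddx58, epithelial minus monocyte-like 1.09 ± 0.25) and 0.42. On simulated data this test recovered 21.5% to 25.5% of 200 genes changed by 1 log2 unit, so differences of that size would often be missed. No difference from macrophage-like cells was tested, because the list was chosen there. Lower calls were also found outside the macrophage-like class in these data. The genes that led its largest cluster include C1qa, C1qc and Ms4a7. The unnamed immune clusters held many of the calls, and whether they are macrophages of another kind was not tested. In endothelial cells 5 of 40 members were called lower, against 3.84% of all genes. The part of the aerocyte-like cells in these calls was not tested. All 3 knockout embryos lay below both heterozygous ones for 45 of 48 members in macrophage-like cells, against 15.4% of all genes. This order held for 22 of 36 in mesenchymal cells (15.7% of all genes), 19 of 46 in monocyte-like cells (14.3%) and 18 of 40 in endothelial cells (20.4%). These counts were not tested against each other.

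The genes around the list were read from 118 other genes of the pathway. Interferon genes themselves were almost absent. Ifnb1 had 7 and 1 UMIs in the heterozygous embryos, compared with 1 (KO1), 0 (KO2) and 2 (KO3) over all kept cells, 8 of the 11 in macrophage-like cells. The Ifna genes had 1 UMI in all, from Ifna2, and Ifng had 35, of which 17 were in T, NK and ILC-like cells. Levels this low allow no comparison. The receptor chains in macrophage-like cells changed little, from -0.10 ± 0.10 for Ifnar2 to 0.15 ± 0.11 for Ifngr2. Most of the other interferon-stimulated genes tested there had all knockout values below both heterozygous values, an order found for 15.4% of all genes. Few had them above. Ifitm3, which blocks viral fusion, stood there at 408 and 236 against 177, 80.6 and 71.7. Ikbke, a kinase that activates IRF3 and IRF7, had the largest rise of the pathway genes tested there. It stood at 5.00 and 4.61 against 11.8, 10.8 and 11.3. These macrophage values are descriptions, like those of the list.

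In the endothelial lineage edgeR called 13 of 87 tested pathway genes lower and 0 higher, against 3.84% of all genes called lower. They include genes of antigen processing, namely the immunoproteasome subunits Psmb8 (-0.95) and Psmb9 (-0.93), the peptide transporter chain Tap2 (-0.94), Tapbp (-0.64) and H2-D1 (-0.55). The others were Isg20, an RNA exonuclease (-1.94), Lgals3bp (-1.60), Helz2 (-1.12), Ifi35 (-0.97), Parp12 (-0.92), Tdrd7 (-0.63), Shisa5 (-0.60) and the receptor chain Ifngr1 (-0.53). Psmb8 stood at 105 and 81.3 CPM against 55.7, 51.6 and 37.9, without overlap. In general capillary-like cells 5 of 83 were lower, against 2.02% of all genes. They were Lgals3bp (-2.63), Psmb9 (-0.96), Tap2 (-0.89), Psmb8 (-0.87) and Shisa5 (-0.67). In monocyte-like cells edgeR called 1 of 94, against 0.169% of all genes. It was Samhd1, a nucleotide hydrolase, at 880 and 875 CPM against 601, 537 and 571 (-0.62 ± 0.10, edgeR adjusted p = 0.0471), with KO1 on the side of the other knockouts.

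Elsewhere the pathway genes moved both ways. In the epithelial lineage 6 of 85 were lower, a share near the 7.9% of all genes. They were Ifitm1 (-1.39), Lgals3bp (-1.05), Znfx1 (-0.72), Ifitm3 (-0.55), Isg20 (-0.52) and Il10rb (-0.42), and 2 higher, Slfn9 (1.30) and Irf1, a factor that carries interferon gamma signals, at 50.7 and 49.3 CPM against 91.5, 65.2 and 89.9 (0.71 ± 0.15). In AT2-like cells 8 of 77 were lower, near the 9.4% of all genes. They were Znfx1 (-0.96), Ifnar2 (-0.86), Socs3 (-0.72), Il10rb (-0.72), Psmb10 (-0.59), Irf2bp2 (-0.55), Ifi27 (-0.52) and Isg20 (-0.52), and Slfn9 was higher (1.58). In the Ear2 cluster 7 of 88 were lower, against 3.11% of all genes, among them Tlr7 (-0.80), H2-T23 (-0.62), Adar (-0.56), Rnf213 (-0.56), Dtx3l (-0.49) and Lgals3bp (-0.41), and Ifitm2 was higher (1.03). In the Gpr171 cluster 8 of 83 were lower, against 3.02% of all genes, among them Tlr7 (-1.09), Helz2 (-0.97), Cxcl10 (-0.73), Cd274 (-0.73), Parp12 (-0.68), Tapbp (-0.46) and Irf2bp2 (-0.38), and 4 higher. Those 4 were Ifitm1 (2.26), Ifitm2 (1.40), Ifitm3 and Socs1, a feedback inhibitor of JAK kinases (1.68). Ifitm3 stood there at 127 and 116 CPM against 324, 302 and 224 (1.22 ± 0.13, edgeR adjusted p = 5.84e-05), the opposite order to its levels in macrophage-like cells, and that difference between classes was not tested.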

How the data were processed

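Single-cell RNA counts of 5 embryonic mouse lungs, 1 library each, were taken from the deposited matrices, which hold UMI counts, as whole numbers, as the authors made them with Cell Ranger 4.0.0 on mm10, per the submitters' processing notes. How reads fitting more than 1 gene copy were counted is not given in the sources used here. A barcode was kept with 500 genes or more and no more than 15% of UMIs from mitochondria. Those dominated by haemoglobin (over 50% of UMIs) with fewer genes were set aside as red-cell barcodes, and barcodes resembling simulated doublets were removed per library. Cells were clustered on 2000 variable genes without interferon-stimulated genes (30 components, 15 neighbours, Leiden resolution 1.0). Clusters were named from marker lists, and those without 3 detected markers stayed unnamed.

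UMIs were summed per library over each lineage or class, given 100 or more cells in each library, and fitted over all genes with edgeR 4.0.16 (R 4.3.3; TMM, filterByExpr, quasi-likelihood test, two-sided, Benjamini-Hochberg over all genes tested, threshold 0.05). DESeq2 1.42.0, other filters and clusterings, the sex of the embryo, a replicate block and leaving out each library were the alternatives. The tests were checked on simulated data with 200 genes changed by 1 log2 unit, where the tested lineage and class fits recovered 65.0% to 83.0% of them, and the genotype by class term 21.5% to 25.5%. The simulation gave every gene the same spread between libraries and changed only genes with higher counts. It held no library that departs from its group as KO1 does, so recovery in the real data may be lower.

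The members and every gene list were chosen with earlier results of these data known. Counts over genes that passed the low-count filter are descriptions, since some passed through the group where they are high. All tested sums come from the same embryos as the contrast that chose the list. Genes were named by a rule: in each role the 2 members with the highest mean CPM in macrophage-like cells, the 3 largest and 3 smallest changes there, and each member or pathway gene past the threshold in a tested fit. A pathway gene that passed is not reported here. Members named outside this rule (Ifi44, Irf7 in monocyte-like cells, Zbp1, Gm4951, and Rsad2 in red-cell barcodes) were chosen after their values were seen. The same holds for the pathway gene Ikbke in macrophage-like cells. Intervals and limits from counts cover counting error only.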

Additional observations from a re-analysis of the deposited data

Results flagged for a closer look

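4 members had every knockout library above both heterozygous libraries in one sum of cells and every one below in another. The differences between these sums were not tested, and all values are CPM after TMM scaling, Het1 and Het2 first. Gbp2 had a log2 fold change of 0.65 ± 0.31 in the epithelial lineage, from 1.54 and 1.19 to 2.37, 2.14 and 2.01, and -0.55 ± 0.36 in the Gpr171 cluster, from 5.49 and 6.72 to 4.05, 3.53 and 4.77. Gbp3 had 0.35 ± 0.23 in the Ear2 cluster, from 3.97 and 4.46 to 5.38, 6.08 and 4.83, and -0.73 ± 0.40 in the mesenchymal lineage. Gbp7 had 0.22 ± 0.09 in the Ear2 cluster, from 41.0 and 38.4 to 51.1, 44.9 and 44.15, and -0.94 ± 0.37 in the endothelial lineage, from 128 and 106 to 104.5, 35.4 and 45.5. Iigp1 had 0.91 ± 0.29 in the epithelial lineage, from 4.34 and 2.46 to 4.61, 6.84 and 7.56, and -3.47 ± 0.60 in macrophage-like cells.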

How the results depend on the processing

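Of the 34 member calls, recomputed 485 times in all, none changed direction; 346 stayed past the threshold and 139 did not. Leaving out each library in turn moved the number of members called lower between 0 and 6 in the epithelial lineage (5 with all libraries), 2 and 37 in the endothelial lineage (5), 0 and 0 in the mesenchymal lineage (0), 0 and 44 in monocyte-like (0), 0 and 38 in general capillary-like (3), 1 and 5 in AT2-like cells (3), 0 and 19 in neutrophil-like (0), 0 and 1 in smooth muscle-like cells (0), 2 and 16 in the Ear2 cluster (11), 0 and 9 in the Gpr171 cluster (7) and 0 and 45 in macrophage-like cells (36). The highest counts came without KO1, except that in the epithelial lineage leaving out KO2 gave 6 as well and in smooth muscle-like cells leaving out Het2 or KO3 gave 1 as well. The share of all genes called lower moved as well, between 1.18% and 7.56% in the epithelial lineage, 0.843% and 4.57% in the endothelial lineage, 0% and 3.59% in monocyte-like, 0.231% and 4.17% in general capillary-like, and 0% and 2.14% in macrophage-like cells.

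With no low-count filter the counts were 13 epithelial, 34 endothelial, 5 mesenchymal, 5 AT2-like, 30 capillary-like, 42 monocyte-like, 11 neutrophil-like, 3 smooth muscle-like and 18 in the Gpr171 cluster, against 8.14%, 4.37%, 1.37%, 6.87%, 3.21%, 1.67%, 0.739%, 0.905% and 2.78% of all genes. With interferon-stimulated genes kept in the clustering they were 23 epithelial and 32 AT2-like, against 4.99% and 10.6% of all genes, and the heterozygous libraries gained more AT2-like cells (365 and 268 in place of 284 and 191) than the knockout ones. Without mixed cells they were 0 epithelial, against 0.739% of all genes, and 6 capillary-like. DESeq2 gave 2 monocyte-like, 2 smooth muscle-like, 6 in the Ear2 cluster and 1 in the Gpr171 cluster. With sex as a covariate they were 3 endothelial, 1 AT2-like, 0 capillary-like and 2 in the Ear2 cluster. Library size in place of TMM gave 3 endothelial. Doublets kept gave 3 endothelial and 5 AT2-like. Leiden resolution 0.5 gave 0 AT2-like and 1 smooth muscle-like. From the capillary-like count without mixed cells on, no share of all genes stands beside these counts. Nothing particular to the members is read from them. Without Ly6e, Ifi27l2a and Bst2 the epithelial summed level differed by -0.18 log2 units. The cause of these changes was not tested.

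The labels number the libraries of both groups from 1, and nothing says that a number marks a shared litter or day. The deviations of same-numbered libraries correlated at -0.117 and -0.155 across genes over all kept cells, 0.11 and 0.0439 in macrophage-like and 0.0207 and 0.0317 in monocyte-like cells, so the numbers were not taken to pair the samples. A replicate block gave 3 epithelial, 3 endothelial, 1 neutrophil-like and 1 smooth muscle-like call, and 45 in macrophage-like cells. Without the shares of all genes beside them, these counts are not read as particular to the members. Depth limits the low members: Iigp1, Ifi44 and Gm4951 were under the filter in monocyte-like cells.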

Other observations

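Rsad2 was singled out after its values were seen. In barcodes of red cells it stood at 330 and 210 CPM of non-haemoglobin UMIs in Het1 and Het2 and at 252, 104 and 133 in KO1, KO2 and KO3, from 1085, 345, 252, 183 and 211 UMIs. It was the 1 member of 49 whose mean there exceeded its heterozygous mean in each of the 20 classes with at least 20 cells in both heterozygous libraries, the highest being 94.2 CPM in monocyte-like cells. Erythroid-like cells, which reached 20 cells in Het1 and KO1, held 214 and 312 CPM. The red-cell barcodes had KO1 above Het2, as in monocyte-like cells.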
